A study of Mus musculus with 6 samples.

Results

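The cytosolic ribosomal protein genes are the genes of the proteins that, with ribosomal RNA, make up the ribosome of the cytoplasm. They were taken by gene name from a table of 55401 mouse genes: names that begin with Rpl or Rps followed by a digit, and Rplp0, Rplp1, Rplp2 and Rpsa. Kinase genes of the Rps6k series, Rps19bp1 and 305 rows named as pseudogenes with -ps were left out. This gave 93 genes, 55 of the large subunit and 38 of the small subunit, of which 92 had enough counts to be tested. Rps12l1, a small-subunit retrocopy (a gene copied back into the genome from an mRNA), was listed at 0 counts in every library and was not tested.

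RNA was sequenced from bone marrow-derived macrophages (BMDM), cells that grow out of mouse bone marrow cultured with the growth factor M-CSF, in 3 libraries of a Lamtor5 knockdown and 3 of wild type (WT). Both groups were M-CSF induced. The study's description writes the mutant as HBXIPΔLysM. HBXIP is another name of Lamtor5, and LysM marks the promoter of the lysozyme gene Lyz2, which drives Cre recombinase in myeloid cells. Lamtor5 is a subunit of Ragulator, which holds the kinase complex mTORC1 at the lysosome. Whether replicate libraries of a genotype stem from different mice or different cultures is not stated, so each p-value reflects just the scatter among 3 libraries a group, part or all of which may be technical.

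Each ribosome carries nearly every one of these proteins once, so a cell needs them in matched amounts, and the genes are among the most expressed in growing cells. Their mRNAs begin with a cytosine followed by a run of pyrimidines, the 5′ terminal oligopyrimidine (TOP) tract. Through Larp1 and the initiation factors, mTORC1 controls how strongly TOP mRNAs are translated and how long they are kept, so the mRNA level measured here is one of several steps that set the protein amount.

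Libraries held between 26.0 and 27.99 M read pairs, and their estimated counts summed to between 75.8 and 83.2 M. Lamtor5 stood at 25.6, 27.1 and 24.8 FPKM (fragments per kilobase of exon per M fragments) in knockdown libraries 1 to 3, against 55.9, 54.5 and 56.2 FPKM in WT libraries 1 to 3. It fell by 1.06 on the log2 scale (SE 0.0782, adjusted p = 0.00963), so the libraries matched their labels. Lyz2 stood at 11360, 10650 and 73.6 FPKM in knockdown libraries 1 to 3, against 29380, 24740 and 22450 FPKM in WT libraries 1 to 3. Every knockdown library thus lay below WT, and knockdown replicate 3 stood far apart from the other 5 libraries. The BMDM label was checked on 9 macrophage markers, all detected in every library. Of these, Cd68 was higher in the knockdown and 6 were lower, among them Adgre1, Csf1r, Itgam, Fcgr1 and Cd14. Cell division markers were lower in the knockdown for 7 of 9 genes. Their summed levels were 59.6 to 101 FPKM in the knockdown, against 159 to 381 FPKM in WT. Over all genes in the fit described below, 4.87% were called higher and 6.46% lower.

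The ribosomal protein mRNAs were more abundant in the knockdown. In each library they made up 4.30%, 4.05% and 4.06% of all estimated counts in knockdown replicates 1 to 3, against 3.73%, 3.37% and 3.22% in WT replicates 1 to 3. Every knockdown library lay above every WT library. An exact permutation test of 3 against 3 libraries cannot go below p = 0.1 and was not used. Large-subunit genes took 2.53%, 2.36% and 2.40% in the knockdown and 2.12%, 1.94% and 1.87% in WT. Small-subunit genes took 1.77%, 1.69% and 1.66% in the knockdown and 1.61%, 1.43% and 1.35% in WT. Since these are shares of bulk RNA, fewer cells of a type and less RNA per cell cannot be told apart. A share also depends on the level of other abundant transcripts, such as Lyz2, and the shares were not computed without Lyz2.

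**Figure D1:**
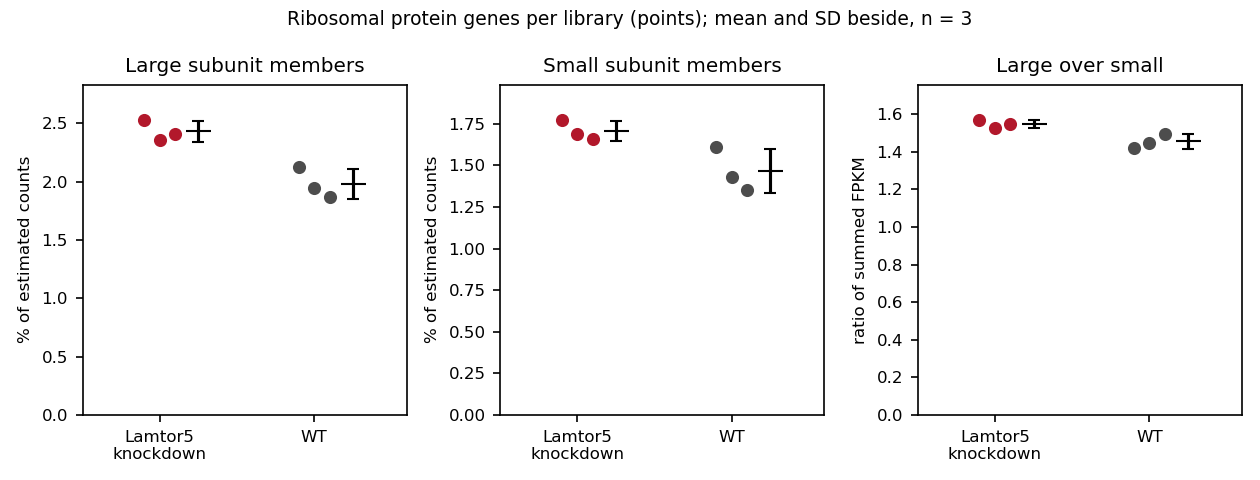
Share of all estimated counts taken by large-subunit genes (left, %) and small-subunit genes (middle, %), and the ratio of summed FPKM, large over small (right), in the Lamtor5 knockdown and in WT. Points are libraries and the bar beside them is the mean ± SD, n = 3. The 3 knockdown libraries lie above the 3 WT libraries in each panel, with ratios of 1.52 to 1.57 against 1.42 to 1.497.

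In a fit of 18164 genes (edgeR's quasi-likelihood test on the estimated counts, Benjamini-Hochberg adjusted p under 0.05), 21 of the 92 tested members were higher in the knockdown and 0 were lower. That is 22.8% higher, set beside 4.87% higher and 6.46% lower over all genes tested. At an unadjusted p under 0.05, 56 members were higher and 0 lower, with 14.5% of all genes higher at that level. DESeq2 called 28 members higher and 0 lower, beside 1579 higher (5.63%) and 1971 lower over 28038 genes. The shift was small for any 1 gene and wide across the family. Of the 92 members, 84 had a log2 fold change above 0 (91.3%), against 51.5% of all genes, and the median was 0.32 against 0.02. Among genes with a mean of at least 100 FPKM, 17.4% of 397 were higher, and 17 of the 64 members at that level were higher (26.6%). The 397 genes include these 64 members. FPKM values of the groups did not overlap for 59 members: the knockdown lay above WT in 57 (62.0%, background 16.3%) and below it in Rpl3 and Rpl22l1 (background 21.3%).

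The number of calls moved with the libraries used. The count of members higher was 0, 4 and 1 without knockdown replicates 1, 2 and 3, and 44, 0 and 0 without WT replicates 1, 2 and 3. Over all genes tested, 1.1%, 2.7% and 2.0% were higher without knockdown replicates 1, 2 and 3, and 5.0%, 0% and 1.4% without WT replicates 1, 2 and 3. Without WT replicate 2, 0 of 18979 genes passed, so no member could pass in all 6 of these fits. Without knockdown replicate 1, WT replicate 2 or WT replicate 3, the numbers higher at an unadjusted p under 0.05 were 36, 35 and 38, and 83 or 84 members were above 0 in each of the 6 fits. Without knockdown replicate 3, the library with the lowest Lyz2, the member called was Rpl38 and 47 members were higher at the unadjusted level.

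**Figure D2:**
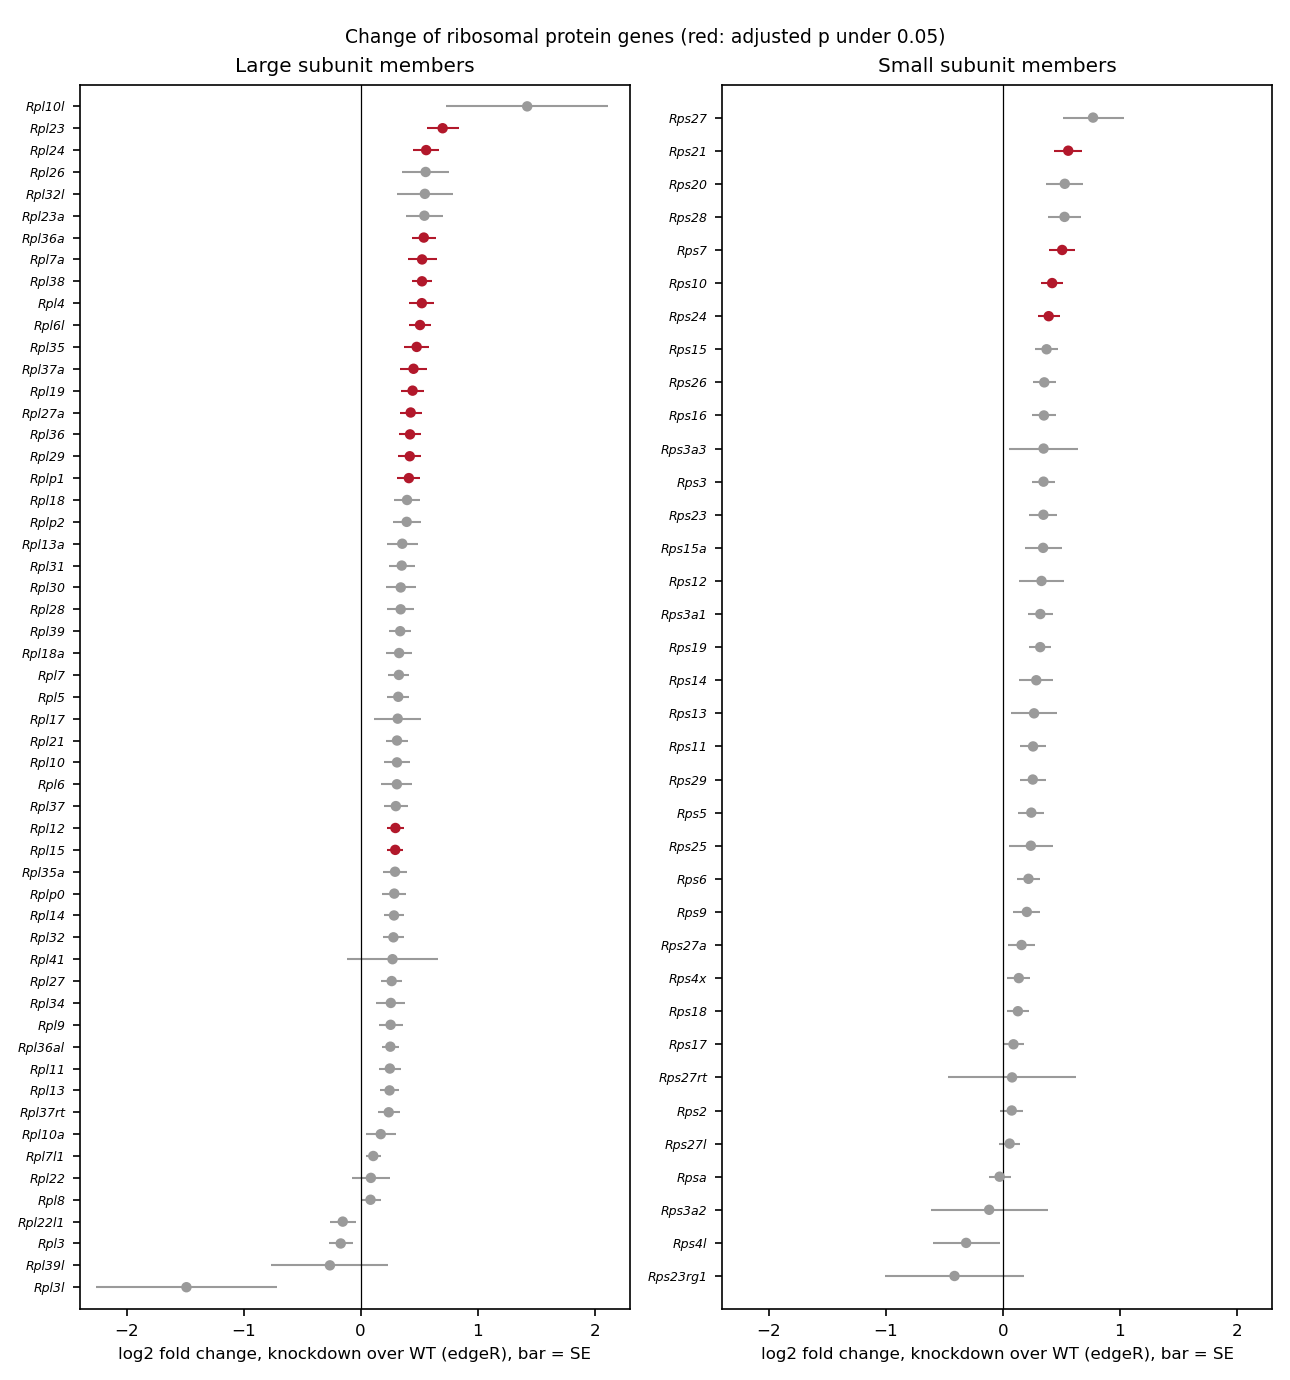
Log2 fold change of the knockdown over WT for tested members, large subunit left and small subunit right, with its SE as a bar. Red points passed at an adjusted p under 0.05; the 16 red large-subunit points and all red small-subunit points lie to the right of 0.

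By subunit, 16 of 55 large-subunit members (29.1%) and 5 of 37 small-subunit members (13.5%) were higher, both beside the 4.87% of all genes. Among genes with a mean of at least 100 FPKM, a level that not every member reaches, the share was 17.4%. The small-subunit share lay below that. The medians were close, at 0.32 for the large and 0.29 for the small subunit. Both were 0.32 once the 9 members listed as retrocopies were set aside. Groups did not overlap, with the knockdown above, in 41 of 55 large-subunit members (74.55%) and 16 of 37 small-subunit members (43.2%). The share over all genes tested was 16.3%. The ratio of summed FPKM, large over small, was 1.57, 1.52 and 1.55 in knockdown libraries 1 to 3, against 1.42, 1.45 and 1.497 in WT libraries 1 to 3. The mean log2 difference was 0.088, with a pooled SD of 0.031 between libraries of a group. Taken instead as the difference of the subunits' median log2 FPKM, it had the other sign (-0.021) and the groups overlapped. With -ps pseudogene rows added to their parents the difference of sums was 0.062, and the groups also overlapped: 1.59, 1.52 and 1.58 in the knockdown, against 1.46, 1.51 and 1.53 in WT. No test was made of the large subunit against the small. Subunit counts also moved with the settings, and the number of small-subunit members called ranged, with all 6 libraries, from 0 with no count filter to 11 with DESeq2.

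Several kinds of sequence are known at the starts of ribosomal protein genes: the TCT initiator, where transcription begins inside a pyrimidine run, ETS-factor sites, YY1 sites and GC boxes. The promoters below are shown because their genes were called higher together and they carry 1 of these motifs close to the start. They come from RefSeq (GRCm38.p6), read 5′ to 3′ on the gene's strand, from 70 bases before the annotated start to 30 bases after it. Capitals mark CTCTTTC on the gene's strand, or CCGGAAG on either strand (CTTCCGG on the opposite one).
Rpl35, chr2:39005102-39005201, minus strand: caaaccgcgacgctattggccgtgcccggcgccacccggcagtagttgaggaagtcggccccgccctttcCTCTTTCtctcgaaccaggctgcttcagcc
Rpl38, chr11:114668510-114668609, plus strand: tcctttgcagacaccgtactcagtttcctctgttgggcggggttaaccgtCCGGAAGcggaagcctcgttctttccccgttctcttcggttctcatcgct
Rpl15, chr14:18270957-18271056, minus strand: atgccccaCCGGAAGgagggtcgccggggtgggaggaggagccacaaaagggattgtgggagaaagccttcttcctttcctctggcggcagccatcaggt
Rpl19, chr11:98026640-98026739, plus strand: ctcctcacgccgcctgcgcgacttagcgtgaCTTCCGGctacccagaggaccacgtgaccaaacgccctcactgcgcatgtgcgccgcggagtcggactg
Rps21, chr2:180257309-180257408, plus strand: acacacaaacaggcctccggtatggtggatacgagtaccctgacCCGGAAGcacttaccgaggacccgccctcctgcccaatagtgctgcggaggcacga
Rps10, chr17:27635215-27635314, minus strand: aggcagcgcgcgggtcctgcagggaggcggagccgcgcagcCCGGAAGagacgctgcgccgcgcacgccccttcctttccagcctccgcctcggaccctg
Rps7, chr12:28635924-28636023, minus strand: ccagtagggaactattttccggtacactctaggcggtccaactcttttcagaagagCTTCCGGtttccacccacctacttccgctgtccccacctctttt
Rpl23, the member with the largest change among those called, carries neither motif in the same window.
Rpl23, chr11:97782410-97782509, minus strand: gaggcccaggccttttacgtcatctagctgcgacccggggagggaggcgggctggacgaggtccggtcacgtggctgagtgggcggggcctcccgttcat

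RefSeq promoters were found for 68 members (80 promoters), among them 16 of the 21 called (19 promoters). CCGGAAG, searched on both strands from 250 bases before to 50 after the start, was in 33.8% of member promoters, 47.4% of those of called members and 8.86% of all 32851 promoters. CTCTTTC within 50 bases of the start on the gene's strand was in 17.5%, 15.8% and 1.37%. GGGCGG was in 57.5%, 63.2% and 35.7%, AAGATGG in 15.0%, 10.5% and 6.34%, and a run of at least 8 pyrimidines within 25 bases of the start in 45.0%, 47.4% and 19.7%. TATAAA in the 50 bases before the start was rare, at 1.25% of member promoters and 2.63% of all. AAGATGG and GGGCGG were searched on both strands, and a pyrimidine run can contain CTCTTTC. A match describes these letters only. The promoters printed above were picked on both the call and the motif, so they cannot show whether the motif goes with the rise. Like Rpl23, the called members Rpl37a, Rpl7a, Rpl12, Rpl27a, Rpl4, Rpl24, Rps24 and Rpl36a carry neither motif in that window. Members not called also carry such a motif there, among them Rpl31, Rpl5, Rpl6, Rpl28, Rpl18, Rps26 and Rpl41. Promoters of called members were not tested against those of the other members.

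The P stalk is the arm of the large subunit that draws elongation factors to the ribosome. All 4 of its genes were above 0, and 2 passed. Beside this list and those that follow, 4.87% of all genes tested were called higher and 51.5% were above 0. Among genes with a mean of at least 100 FPKM, 17.4% were called higher. Rplp1, which forms dimers with Rplp2 on the stalk, was the most abundant member, at 1928, 1884 and 1699 FPKM in knockdown libraries 1 to 3, against 1541, 1411 and 1329 FPKM in WT libraries 1 to 3. It rose by 0.41 on the log2 scale (SE 0.0985, adjusted p = 0.0433). Rpl12, at the base of the stalk, had 104, 100 and 103 FPKM in the knockdown, against 88.2, 86.5 and 83.9 FPKM in WT. Its change was smaller but tight, at 0.30 (SE 0.0747, adjusted p = 0.0496). Groups did not overlap in either gene. Rplp0, the scaffold that holds the dimers, averaged 925 ± 35.1 FPKM in the knockdown, against 784 ± 60.8 FPKM in WT (SD, n = 3 each; log2 fold change 0.29, adjusted p = 0.115). Rplp2 averaged 162 ± 17.8 FPKM in the knockdown, against 128 ± 12.5 FPKM in WT (0.39, adjusted p = 0.0805).

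A set of 10 large-subunit proteins lines the tunnel through which the new protein leaves or surrounds its mouth. All of these genes were above 0, 4 passed, and their median log2 fold change was 0.46. Rpl4, which reaches into the tunnel, had 747, 734 and 752 FPKM in the knockdown, against 593, 529.5 and 484 FPKM in WT, and rose by 0.52 (SE 0.107, adjusted p = 0.0284). Rpl38, in which mouse mutations alter the axial skeleton, had 372, 408 and 346 FPKM in the knockdown, against 259, 296 and 255 FPKM in WT. It had the smallest p of all members (log2 fold change 0.52, SE 0.0853, adjusted p = 0.0170), and no library of 1 group entered the range of the other.

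At the tunnel mouth, Rpl35 is a contact of the signal recognition particle, which steers secreted proteins to the endoplasmic reticulum. Its levels were 324, 358 and 367 FPKM in the knockdown, against 279.5, 272 and 227 FPKM in WT (0.48, SE 0.107, adjusted p = 0.0364). Rpl19, which also bridges to the small subunit, had 824, 778 and 777 FPKM in the knockdown, against 662, 581 and 565 FPKM in WT (0.44, SE 0.1004, adjusted p = 0.0378). The lowest knockdown library exceeded the highest WT library in both genes. The other tunnel genes did not pass. Rpl26 and Rpl23a had log2 fold changes as large as those called, 0.56 (adjusted p = 0.120) and 0.54 (adjusted p = 0.0718), with wider spread: Rpl26 ranged from 339 to 502 FPKM in the knockdown, against 251 to 369.6 FPKM in WT. Rpl22, which is also a regulator of T-cell development in mice, stood at 0.09 (adjusted p = 0.764).

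Around the peptidyl transferase centre and the tRNA sites, 1 of 5 genes passed and the median was 0.17. Rpl36a, at the exit site for spent tRNA, had 96.6, 95.9 and 92.9 FPKM in the knockdown, against 75.4, 65.6 and 61.9 FPKM in WT. It rose by 0.54 (SE 0.1001, adjusted p = 0.0227), and the groups were well apart. Rpl3, which lies close to the catalytic centre, went the other way without passing. It had 189, 168 and 205 FPKM in the knockdown, against 217, 216 and 223 FPKM in WT, with a log2 fold change of -0.17 (SE 0.103, adjusted p = 0.316). All 3 knockdown libraries lay below the WT libraries, the only such case among members above 20 FPKM. Rpl8, a core protein of the subunit interface, had 517 ± 25.8 FPKM in the knockdown, against 505 ± 13.6 FPKM in WT (0.08, adjusted p = 0.561). Neither Rpl5 nor Rpl11 passed by edgeR or DESeq2, and both were higher at an unadjusted p under 0.05 (0.32, adjusted p = 0.0706, and 0.25, adjusted p = 0.126). Both proteins carry 5S rRNA and, when unassembled, bind the p53 inhibitor Mdm2.

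Among the other large-subunit members, 9 passed. Rpl23 lies at the interface between subunits and can also bind Mdm2. It had 295, 345 and 339 FPKM in the knockdown, against 244, 199.9 and 177 FPKM in WT, and rose by 0.70 (SE 0.138, adjusted p = 0.0258). Among the members called, this change was the largest. Rpl24, whose protein reaches across to the small subunit, had 332, 347 and 348 FPKM in the knockdown, against 270.5, 238 and 211 FPKM in WT (0.56, SE 0.110, adjusted p = 0.0258). Rpl37a, a zinc-binding protein, had 270.3, 283 and 270.4 FPKM in the knockdown, against 237, 201 and 184 FPKM in WT (0.45, SE 0.112, adjusted p = 0.0477). In each of these genes WT library 3 was the lowest of the 6.

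Rpl36 had 447, 471 and 445 FPKM in the knockdown, against 386, 339 and 325 FPKM in WT (0.42, SE 0.0920, adjusted p = 0.0339). Rpl27a had 166, 162 and 159.9 FPKM in the knockdown, against 137, 124 and 115 FPKM in WT (0.43, SE 0.0952, adjusted p = 0.0361). Both are core proteins that hold rRNA helices together, as are the next members. Rpl15 had tight groups, with 114, 115 and 114 FPKM in the knockdown, against 99.3, 96.6 and 93.4 FPKM in WT, and passed at a small change (0.30, SE 0.0696, adjusted p = 0.0418). Rpl29 had 205, 186 and 214 FPKM in the knockdown, against 162, 161 and 145 FPKM in WT (0.42, SE 0.0991, adjusted p = 0.0420). In all 4 genes the groups were separate. Rpl7a and Rpl6l, the other called members of the large subunit, share sequence with copies and are described with them.

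The head of the small subunit turns as mRNA and tRNA move through the ribosome. Its 14 genes were all above 0 with a median of 0.32, and 1 passed, beside 4.87% of all genes called higher. Rps10, at the tip of the head near the mRNA path and mutated in human Diamond-Blackfan anaemia, had 144, 134 and 132 FPKM in the knockdown, against 114, 103 and 99.2 FPKM in WT (0.42, SE 0.0941, adjusted p = 0.0364). Rps15, the most abundant head gene, just missed the threshold. It had 828, 807 and 823 FPKM in the knockdown, against 723, 628 and 610.2 FPKM in WT (0.37, SE 0.0986, adjusted p = 0.0560), with no overlap. Rps20 had 57.1, 79.0 and 53.6 FPKM in the knockdown, against 50.8, 44.8 and 39.7 FPKM in WT (0.53, SE 0.158, adjusted p = 0.0763). Its knockdown replicate 2 stood well above the other libraries. Rps29 had 585, 618 and 560.1 FPKM in the knockdown, against 576, 498 and 452 FPKM in WT (0.26, adjusted p = 0.175), and the groups overlapped through WT replicate 1.

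In the body and platform, 4 of 17 genes passed, 16 were above 0 and the median was again 0.32. Rps21, which sits beside Rpsa, had 208, 196 and 177 FPKM in the knockdown, against 155, 129 and 124 FPKM in WT (0.56, SE 0.121, adjusted p = 0.0332). Rps7, needed for pre-rRNA processing, had 232, 256 and 254 FPKM in the knockdown, against 204, 177 and 158 FPKM in WT (0.51, SE 0.114, adjusted p = 0.0367). Rps24 acts in the same processing and, like Rps7, is mutated in human Diamond-Blackfan anaemia. It had 85.6, 83.9 and 83.8 FPKM in the knockdown, against 73.0, 64.7 and 61.9 FPKM in WT (0.39, SE 0.0950, adjusted p = 0.0452). In these 3 genes WT replicate 1 was the highest WT library and WT replicate 3 the lowest. Rpsa, also known as the laminin receptor precursor, stood at -0.03 (adjusted p = 0.873). Rps2, at the mRNA entry, stood at 0.08 (adjusted p = 0.649). Rps6, the substrate of S6 kinase, had 546 ± 5.97 FPKM in the knockdown, against 485 ± 45.1 FPKM in WT (0.22, adjusted p = 0.192).

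**Figure D3:**
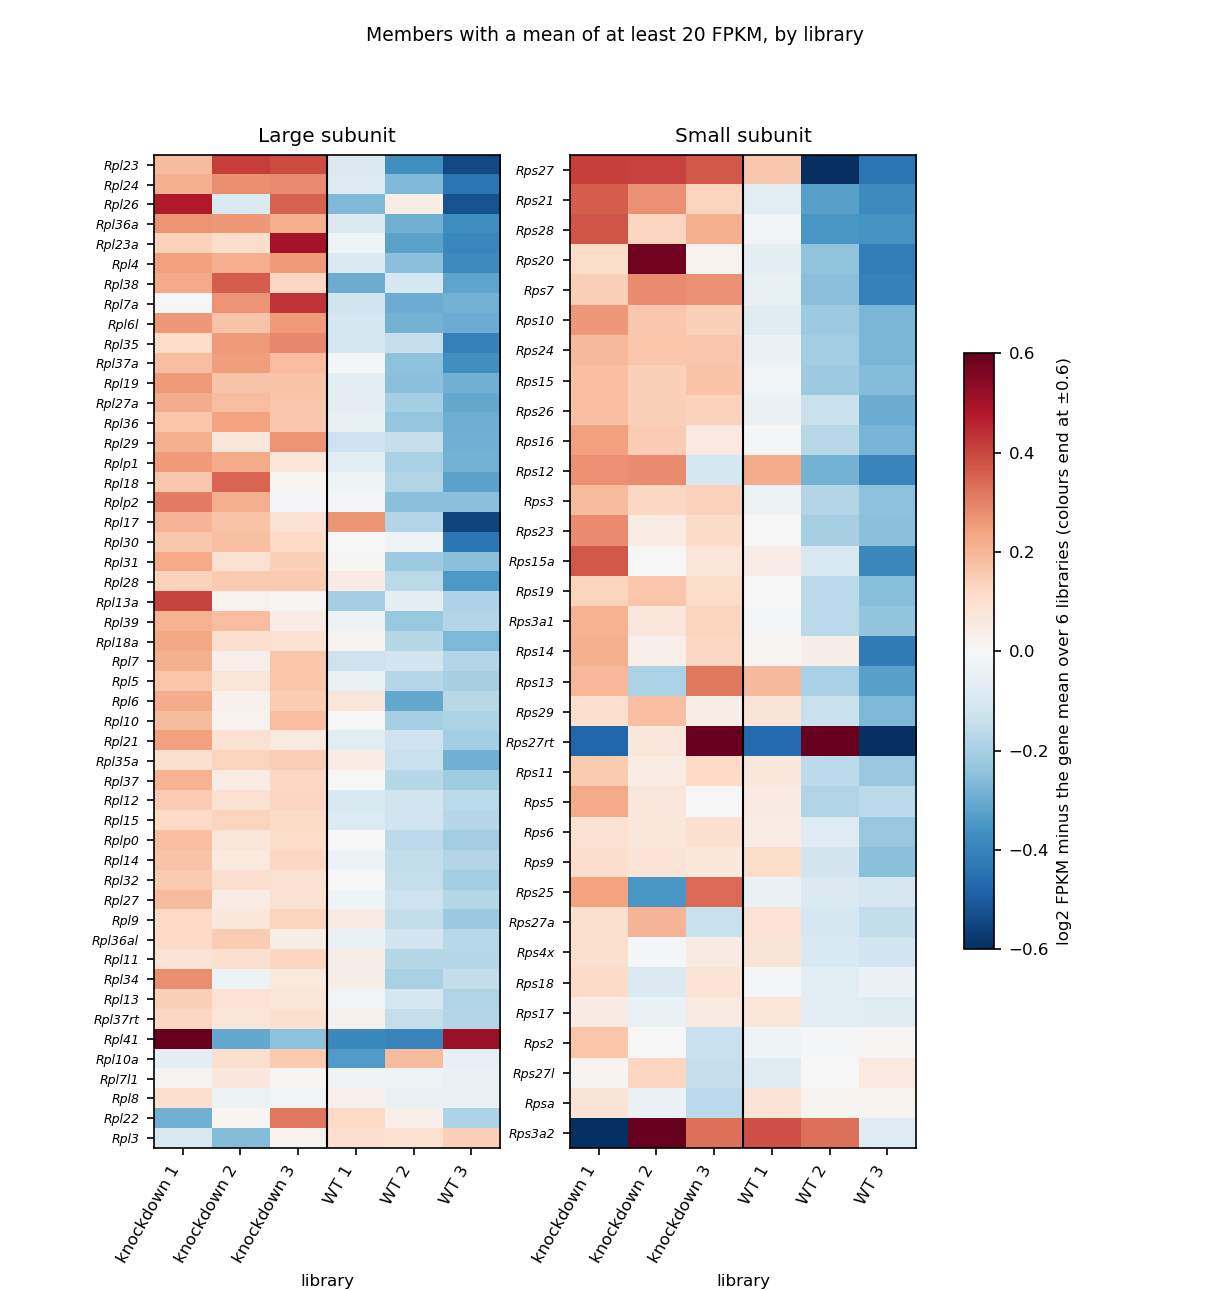
Log2 FPKM of members with a mean of at least 20 FPKM, large subunit left and small subunit right, minus the gene's mean over the 6 libraries; red is above and blue below the mean, and colours end at 0.6. Most rows are red in the 3 knockdown columns and blue in WT 2 and WT 3, with WT 1 between; Rps27rt, Rps3a2 and Rpl41 break the pattern.

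The members moved together from library to library, and most of the spread lay within WT. In 78 of 92 members WT replicate 1 was the highest WT library, and in 72 WT replicate 3 was the lowest. The median member deviated from its group mean by 0.030, -0.012 and -0.015 (log2) in knockdown replicates 1 to 3, against 0.131, -0.024 and -0.090 in WT replicates 1 to 3. For the 84 members above 20 FPKM the median SD of log2 FPKM within a group was 0.106, set beside 0.131 for all 2173 genes at that level. Once each library's median over the members was subtracted, it fell to 0.0677. The WT order of the members ran against that of the cell division markers, whose summed level was lowest in WT replicate 1. Mki67, a marker of dividing cells, had 5.88, 11.6 and 4.69 FPKM in knockdown libraries 1 to 3, against 28.8, 52.6 and 64.7 FPKM in WT libraries 1 to 3. The part of cell division in the result was not tested.

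A group of 17 members forms sets of paralogs in which the extra copy is often restricted to a tissue. The main member of each set had the higher level, except that Rpl36al was more abundant than Rpl36a. Rpl36al had 119, 121 and 112 FPKM in the knockdown, against 107, 101 and 97.4 FPKM in WT (0.25, adjusted p = 0.0756). Rpl10l, known from testis, had 0.113, 0.425 and 0.482 FPKM in the knockdown, against 0.0659, 0.153 and 0.158 FPKM in WT. Its log2 fold change was the highest of all members and did not pass (1.42, SE 0.693, adjusted p = 0.219). The muscle gene Rpl3l had 0.0746, 0.0168 and 0.0274 FPKM in the knockdown, against 0.195, 0.125 and 0.0693 FPKM in WT (-1.49, SE 0.772, adjusted p = 0.247). Its groups overlapped, as did those of Rpl10l. Rpl39l, likewise known from testis, stood at 0.616 ± 0.297 FPKM in the knockdown, against 0.778 ± 0.350 FPKM in WT (-0.26, adjusted p = 0.765).

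The parents Rpl10, Rpl39 and Rpl7 averaged 235 ± 15.3, 104 ± 6.36 and 226 ± 14.6 FPKM in the knockdown, against 196 ± 15.6, 85.1 ± 6.11 and 186 ± 4.36 FPKM in WT. None passed (0.31, 0.34 and 0.33; adjusted p = 0.108, 0.0617 and 0.0628), although their groups did not overlap. Rpl7l1 had 24.1, 24.9 and 23.9 FPKM in the knockdown, against 23.4, 23.4 and 23.1 FPKM in WT (0.11, adjusted p = 0.314). Rpl22l1, which in mouse cells is repressed by Rpl22, had 13.7, 18.1 and 17.2 FPKM in the knockdown, against 19.2, 18.9 and 18.4 FPKM in WT (-0.15, adjusted p = 0.405). Rps27l, a p53 target, had 48.2 ± 4.42 FPKM in the knockdown, against 47.9 ± 2.19 FPKM in WT (0.06, adjusted p = 0.705). Rps4x, the X-linked form, had 514 ± 18.5 FPKM in the knockdown, against 484 ± 35.9 FPKM in WT (0.14, adjusted p = 0.400). Its retrocopy Rps4l was far lower, at 6.34 ± 2.31 FPKM in the knockdown, against 8.17 ± 1.16 FPKM in WT (-0.31, adjusted p = 0.513).

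A list of 9 members was treated as retrocopies. It leaves out Rpl10l, which is annotated with 1 exon. Each listed member is close in sequence to a parent gene, and reads of such pairs can be split between them by the counting. Rps27, which binds zinc on the platform, shows this most. It had 260.5, 259 and 252 FPKM in the knockdown, against 218, 103 and 144 FPKM in WT, and its log2 fold change of 0.77 was the largest in the small subunit without passing (SE 0.261, adjusted p = 0.102). Its retrocopy Rps27rt had 89.3, 130.4 and 206 FPKM in the knockdown, against 90.0, 265 and 64.2 FPKM in WT. Rps27rt took 10.95%, 15.3% and 22.6% of the pair's counts in knockdown libraries 1 to 3, against 12.9%, 47.9% and 13.8% in WT libraries 1 to 3. WT replicate 2, where Rps27 was lowest, was the library where Rps27rt was highest. Added together, the pair had 28065, 27271 and 30370 estimated counts in the knockdown and 24328, 19249 and 16202 in WT. The sum gave a log2 fold change of 0.63 (SE 0.159, adjusted p = 0.0498); adding the copies was chosen after seeing the data.

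**Figure D4:**
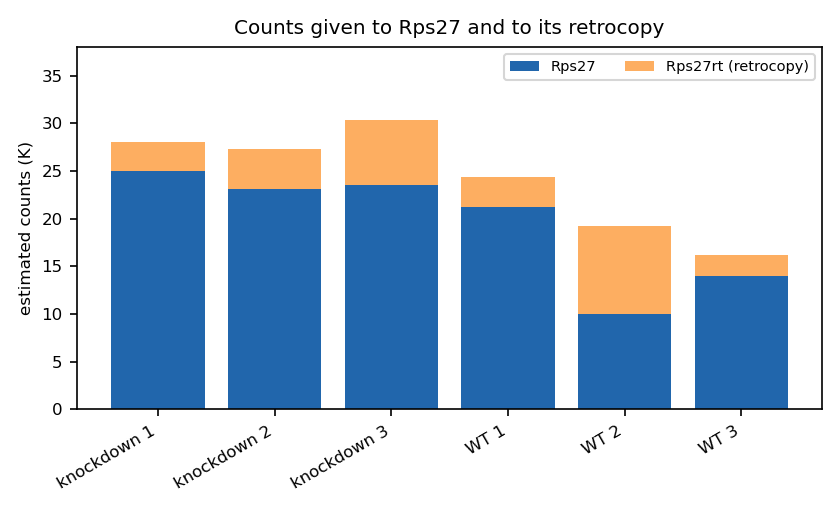
Estimated counts, in units of K on the axis, of Rps27 (blue) and its retrocopy Rps27rt (orange), stacked, in each library. The 3 knockdown sums, 27271 to 30370 counts, exceed the 3 WT sums, 16202 to 24328, while the orange share varies from 10.95% to 47.9%.

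Rps3a2 and Rps3a3, copies of Rps3a1, took 2.45%, 10.2% and 7.69% of the 3 genes' counts in the knockdown and 8.89%, 9.05% and 7.63% in WT. Rps3a1 itself, a platform protein, had 996, 902 and 943 FPKM in the knockdown, against 854, 770.4 and 729.8 FPKM in WT (0.32, adjusted p = 0.0926). Rps3a2 ranged from 22.3 to 110.4 FPKM within the knockdown alone, and its log2 fold change was -0.12 (adjusted p = 0.899). Rps3a3 stood at 11.2 ± 4.02 FPKM in the knockdown, against 9.04 ± 2.46 FPKM in WT, and Rps23rg1 at 0.0575 ± 0.0193 FPKM in the knockdown, against 0.0781 ± 0.0332 FPKM in WT. Neither passed (adjusted p = 0.474 and 0.692). Rpl6l was the 1 retrocopy that passed. It had 138, 129 and 137 FPKM in the knockdown, against 106, 94.2 and 93.1 FPKM in WT (0.51, SE 0.0948, adjusted p = 0.0229). Its parent Rpl6 stood at 0.31 (adjusted p = 0.172). Rpl6l took 14.8%, 15.8% and 15.35% of the pair's counts in the knockdown and 12.98%, 14.65% and 13.35% in WT. How the counting divided reads between the copies was not tested, and the call for Rpl6l is uncertain for that reason.

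The 305 rows named -ps are pseudogenes by name, 304 of them named after a member, and 60 members have at least 1. They took up to 67.6% of the joint counts of Rpl17, 63.7% of Rpl7a and 58.7% of Rpl21. Rpl7a, a core large-subunit protein, had 93.9, 113 and 126 FPKM in the knockdown, against 86.2, 76.1 and 76.8 FPKM in WT, and rose by 0.52 (SE 0.124, adjusted p = 0.0422). With its -ps rows added the change was 0.43 and no longer passed (adjusted p = 0.120). Rpl17, in the exit tunnel, had 0.32 alone (adjusted p = 0.346) and 0.51 with them (adjusted p = 0.0269). Of the 20 members with at least 10% of their counts in -ps rows, 5 were higher, with a median of 0.31. Of the other 72, 16 were higher, with a median of 0.32. With -ps rows added, 21 of 92 members were higher, beside 5.0% of 18009 genes, and the subunit balance changed as given above. The part of reads shared with pseudogenes in the family's result was not tested. Many members also host small nucleolar RNAs in their introns. The median was 0.32 for the 30 hosts and 0.29 for the 62 others.

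Levels differed widely between members. After the listed retrocopies were set aside, 80 members had at least 20 FPKM. Among these, the mean over 6 libraries ran from 23.8 FPKM for Rpl7l1 to 1632 FPKM for Rplp1, a range of 68.6-fold. The deposited FPKM divides by the joined length of all annotated exons: for 98.6% of 9183 genes the length it implies was within 1% of that in GENCODE M21. For these members that length had a median of 1776 nt, beside 705 nt for the principal mRNA, and reached 6270 nt in Rps15a. The median of the genes' own ratios was 2.37. Across these 80 genes, which are not independent replicates, log2 FPKM and log2 length had a Pearson r of -0.62 (Spearman rho -0.62). Rescaled to the principal mRNA, the range was 27.4-fold and r was -0.28. Both r values are partly set by arithmetic, since this length divides the FPKM and the rescaling multiplies by it. Rps15a then stood at 577 FPKM in place of 58.9, and Rps20, whose principal transcript is annotated at 3706 nt, was lowest at 59.6. Median levels were 189.8 FPKM for the large and 197 FPKM for the small subunit as deposited, and 446 and 569 FPKM after rescaling. Rescaling changes no gene's fold change, since it acts on all libraries alike. It does change the weight of each gene in the summed FPKM of a subunit. The ratio of large over small was not computed after rescaling.

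**Figure D5:**
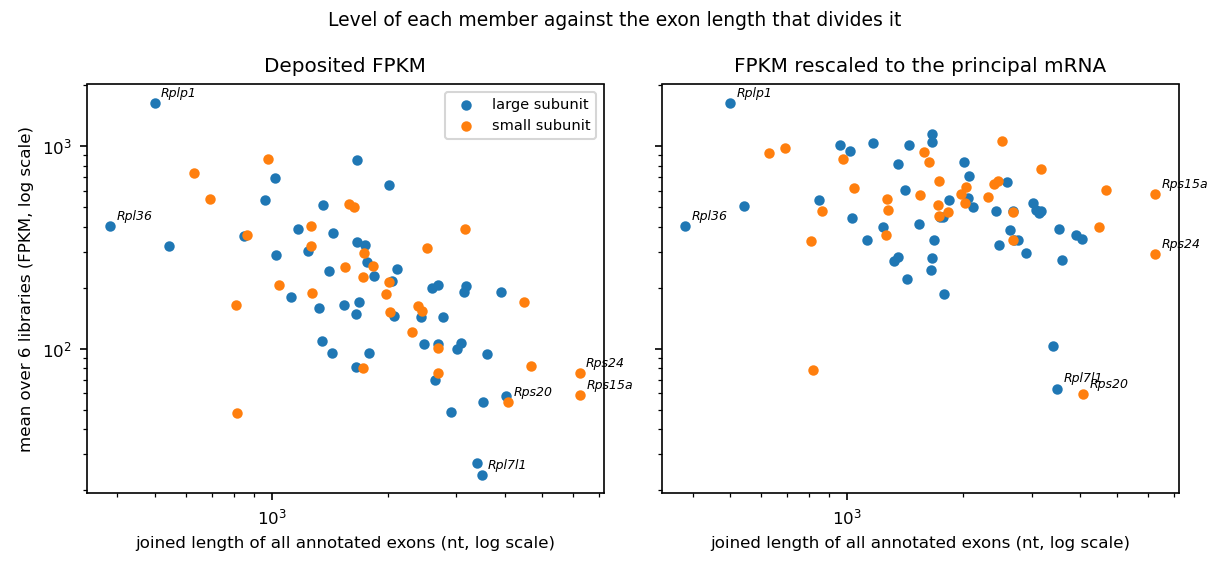
Mean FPKM over 6 libraries (log scale) of 80 members against the joined length of their annotated exons (nt, log scale), as deposited (left) and rescaled to the principal mRNA (right); blue is large and orange small subunit. As deposited, levels fall along the length axis (r = -0.62); after rescaling r is -0.28, and Rps15a moves to 577 FPKM.

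The genes that accompany the ribosomal proteins moved in part. Fau, which encodes a ribosomal protein fused to a relative of ubiquitin, and Rack1, a small-subunit scaffold, were above 0, with log2 fold changes of 0.30 and 0.27 (adjusted p = 0.127 and 0.286). Of 15 other TOP mRNAs, 0 were higher and 2 lower by edgeR, and 2 higher and 2 lower by DESeq2. At an unadjusted p under 0.05 there were 9 higher and 2 lower, 13 were above 0, and the median was 0.28. Eif4b, an initiation factor, had 148, 146 and 179 FPKM in the knockdown, against 133, 114 and 104 FPKM in WT (0.48, adjusted p = 0.0704). Naca, which guides new chains at the ribosome, averaged 59.98 ± 3.42 FPKM in the knockdown, against 47.6 ± 3.28 FPKM in WT (0.38, adjusted p = 0.0539). The 2 lower genes were Hnrnpa1, an RNA-binding protein of the nucleus, and Nap1l1, a histone chaperone. Hnrnpa1 had 37.1, 39.4 and 35.9 FPKM in the knockdown, against 50.6, 58.2 and 65.3 FPKM in WT, and fell by 0.58 (adjusted p = 0.0173). Nap1l1 fell by 0.56 (adjusted p = 0.0289).

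The other lists had few calls, beside 4.87% of all genes called higher, 6.46% called lower and 14.5% higher at an unadjusted p under 0.05. By edgeR, 0 of 25 initiation factors passed (4 higher and 1 lower at an unadjusted p under 0.05, 0 by DESeq2; median -0.05). Among 10 genes that link mTORC1 to translation, 0 passed (3 higher and 0 lower unadjusted, 1 by DESeq2; median -0.03). Larp1, the TOP-binding repressor, stood at 0.00 (adjusted p = 0.986), and Rps6kb1, which encodes S6 kinase, at 0.58 (adjusted p = 0.0641). Of 31 ribosome assembly genes, Gnl3 (nucleostemin) rose by 1.03 (adjusted p = 0.0214), Tcof1 fell by 0.50 (adjusted p = 0.0382), and the median was -0.01. In that list 4 were higher and 4 lower unadjusted, and 1 was higher and 3 lower by DESeq2. Of 13 genes of RNA polymerase I and the Myc network, Polr1c rose by 0.51 (adjusted p = 0.0226) and the median was 0.06. Here 3 were higher and 2 lower unadjusted, and 2 were higher and 1 lower by DESeq2. Myc had 2.97, 2.69 and 2.62 FPKM in the knockdown, against 2.73, 3.81 and 6.69 FPKM in WT (-0.62, adjusted p = 0.231). The medians of these lists were not tested against that of the ribosomal proteins.

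Markers of other cells also differed between the groups, beside 4.87% of all genes called higher and 6.46% called lower. Haematopoietic progenitor markers summed to 15.7 to 25.8 FPKM in the knockdown, against 8.71 to 9.45 FPKM in WT, with Kit and Mpo called higher among 7. Of the 7, 6 were above 0, and Cd34 went the other way (-1.02, adjusted p = 0.194). Myb changed little (0.21, adjusted p = 0.755). Mast cell and basophil markers summed to 6.20 to 14.9 FPKM in the knockdown, against 2.02 to 4.22 FPKM in WT, with Prss34 and Prg2 called among 6. Erythroid markers summed to 1.34 to 7.87 FPKM in the knockdown, against 0.315 to 0.676 FPKM in WT; Hba-a1 was called among 3 tested, and the defining genes Alas2 and Car1 were listed at 0 in every library. B and plasma cell markers summed to 14.4 to 32.0 FPKM in the knockdown, against 56.2 to 73.8 FPKM in WT, with Ighm called lower among 6. Jchain, the 1 marker of these above 0, stood at 1.265 (adjusted p = 0.174). Ltf was lower among 7 neutrophil markers, and none of 5 dendritic cell or 2 tested T and NK cell markers passed, with Cd3g at 0 throughout. The part of these cells in the ribosomal protein result was not tested.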

How the data were processed

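The authors deposited 1 table with, per the file headers, a count and an FPKM value for each gene and library. The count columns are whole numbers but sum to 2.95 to 3.01 per read pair kept, so the authors deposited estimated counts and not a tally of reads; they were used as deposited, with no rounding needed. A count of 0 goes with a listed FPKM of 0.0001. Trimming logs name cutadapt 1.9, per their file headers. Per the submitters' processing notes, reads were placed on GRCm38 (mm10). Which aligner, counter, annotation and strand setting were used is not given in the sources used here.

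Genes were tested with edgeR 4.0.16 in R 4.3.3 as follows: filterByExpr with a minimum count of 10, TMM scaling, and a quasi-likelihood fit of group alone. P-values of 18164 genes were adjusted by Benjamini-Hochberg, and the threshold was 0.05. Log2 fold changes are the knockdown over WT from this fit. FPKM values are the authors', given as mean ± SD for n = 3. The fit was checked on simulated counts. Members were described with values where they passed, where they had the 3 largest or smallest changes or the 3 highest or lowest levels of their subunit, or where they form paralog sets; other members named were chosen after their values were seen, and a few genes are not reported here. The members, role lists and marker lists were chosen with earlier results of these data known. RefSeq promoters and GENCODE M21 exons were matched by gene name and gene ID. Of 93 members, 80 had the same coordinates in GENCODE M21 as in the table, and 34 overlap another gene. The alternatives were other scalings, DESeq2 1.42.0, limma 3.58.1 on log2(FPKM + 1) and log2(FPKM + 0.1) with and without a minimum mean of 1 FPKM, no count filter, counts divided by 3, pseudogene rows added to their parents, a block for the replicate number, and fits with 1 library removed.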

Additional observations from a re-analysis of the deposited data

Results flagged for a closer look

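The rows named -ps, which the comparison of members leaves out, took 0.377%, 0.380% and 0.398% of all estimated counts in knockdown replicates 1 to 3 (mean 0.385%), against 0.305%, 0.276% and 0.284% in WT replicates 1 to 3 (mean 0.288%). Every knockdown library was above every WT library. Summed, these rows moved in the same direction as the members, but not for every parent. The -ps rows of Rpl10a had 1243, 996 and 1334 counts in the knockdown, against 2084, 1930 and 1755 in WT, while Rpl10a stood at 0.17. Reads of the parents counted in -ps rows cannot be told apart from transcripts of the pseudogenes.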

How the results depend on the processing

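Members above 0 numbered 83 to 85 of 92 in the settings that tested all of them, and 0 members were called lower in any setting; the number called higher moved. It was 16 large-subunit and 5 small-subunit members as reported, with 2058 genes called in all. Small-subunit calls were 9 with upper-quartile scaling (which also raised the share of higher genes among all calls to 54.7%, against 43.0%) and 8 with counts divided by 3. DESeq2 called 11 small-subunit members and 3550 genes. With no count filter there were 6 large-subunit, 0 small-subunit and 1205 genes in all, and limma on log2(FPKM + 1) with no filter gave 2, 0 and 789. Leaving out 1 library gave 0 to 29 large-subunit and 0 to 15 small-subunit members and 0 to 2334 genes in all (the 0, without WT replicate 2, beside 4065 genes at an unadjusted p under 0.05), medians of 0.27 to 0.40 (large) and 0.20 to 0.40 (small), and a subunit balance of 0.071 to 0.109. The balance reversed to -0.021 when medians replaced sums; the cause was not tested. Each gene's deviations from its group mean (log2 counts per M) were correlated between same-numbered knockdown and WT libraries. The correlations of these deviations were 0.046, 0.036 and -0.011, so the numbers are not shown to pair the libraries. With the replicate block, 2 large-subunit and 2 small-subunit members and 728 genes passed. Adding retrocopies to their parents, chosen after seeing the data, gave 15 and 6. For 45 named genes, 611 of 793 alternative values kept call and direction, 167 lost the call, 15 gained it and 0 changed sign as a call. What limits the number of calls was not tested.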
